A study of Mus musculus with 6 samples.

Results

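The secreted Wnt antagonists and Wnt feedback genes described here are 9 genes, taken by symbol out of the 55401 genes of the count table. They are the secreted Frizzled-related proteins Sfrp1, Sfrp2, Sfrp4 and Frzb, the Wnt inhibitory factor Wif1, the Dickkopf proteins Dkk2 and Dkk3, the feedback gene Axin2 and the Dishevelled-binding regulator Dixdc1. Their transcripts were counted by RNA-seq in cultured cancer-associated fibroblasts (CAFs), the fibroblasts that a tumour recruits and activates. Mouse tumour organoids were implanted in the rectum, CAFs were taken from the resulting tumours, and the cells were grown in serum-containing medium on plates coated with fibronectin. The hosts were Thbs2KO mice (3 libraries) or wild-type (WT) mice (3 libraries). Thbs2 encodes the secreted matricellular glycoprotein thrombospondin-2. The labels do not give how the knockout allele was made, the age of the mice, the genotype of the organoids, or whether each replicate is a different mouse or only a different culture. A p-value here therefore reflects the spread among these libraries alone, and that spread may be technical.

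Wnt proteins signal by binding a Frizzled receptor together with the co-receptor LRP5 or LRP6, which recruits Dishevelled and Axin, stabilises beta-catenin and switches on genes through TCF/LEF factors. Secreted Frizzled-related proteins and WIF1 bind Wnt itself, while Dickkopf proteins act on the co-receptor, so both classes can restrain the signal outside the cell. Axin2 is transcribed in response to beta-catenin and feeds back on the pathway, which makes it a common readout, and in the gut mesenchymal cells are a major source of the antagonists that shape Wnt signalling along the crypt.

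In these CAFs, 1 of the 9 genes passed the test between genotypes, where 1.09% of all tested genes did: Dixdc1 rose about 3-fold in Thbs2KO, with an interval of 2.46-fold to 3.92-fold. Dixdc1 did not pass in a fit with the replicate number as a block (edgeR, Benjamini-Hochberg adjusted p = 0.0719). Dkk2 averaged 3.34-fold higher in Thbs2KO and its groups did not overlap, but 1 library was far above the others and the adjusted p was 0.206. Sfrp1, the most abundant antagonist, and Dkk3 had groups that overlapped and did not pass the test. Axin2 and Sfrp4 averaged more than 2-fold higher on few reads and did not pass the test, and Wif1 was barely detected.

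Values are CPM, read counts scaled to the size of the library, with library sizes adjusted by the trimmed mean of M-values (TMM). Differences were tested with edgeR's quasi-likelihood test over all 13590 genes with enough reads, and a gene was called changed at a Benjamini-Hochberg adjusted p below 0.05. By that test 148 genes, or 1.09%, changed, 0.552% higher and 0.537% lower in Thbs2KO. Of the 9 genes 8 had enough reads to be tested. Dixdc1 was already known to be among the genes that differ in these libraries when the set was drawn up, so its call is no independent evidence about the set. Library totals ran from 19649066 to 20860335 reads in Thbs2KO and from 23061568 to 24417464 reads in WT. Thbs2, the check of the labels, measured 412 to 538.2 CPM in Thbs2KO libraries, against 2327 to 4166 CPM in WT libraries (edgeR, Benjamini-Hochberg adjusted p = 0.00521). By a chi-square over genes, divided by its degrees of freedom, Thbs2KO replicates 1 and 2 were closest to each other, at 3.825. WT replicates 2 and 3 followed at 15.84, and the other pairs lay between 45.78 and 123.4, so Thbs2KO replicate 3 and WT replicate 1 each stood apart from their own group. The 12 fibroblast markers together measured 28070 to 39950 CPM in Thbs2KO and 28940 to 31690 CPM in WT, sums made mostly of the collagen genes Col1a1, Col1a2 and Col3a1. Of the 9 lymphoid markers 6 had no read in any library, and the leukocyte marker Ptprc had at most 1 read in a Thbs2KO library and at most 4 reads in a WT library. Myeloid transcripts were present at low levels: the 11 myeloid markers together measured 8.172 to 14.67 CPM in Thbs2KO and 9.083 to 20.37 CPM in WT. Of these 4 were tested and 0 passed. Lyz2 measured 3.215, 0.44 and 5.525 CPM in the Thbs2KO libraries, against 1.98, 1.271 and 10.31 CPM in the WT libraries. Cd14 ran from 3.96 to 6.068 CPM and Csf1r from 1.222 to 2.389 CPM over the 6 libraries.

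The bases upstream of the transcription start are shown for Dkk2, Axin2 and Dixdc1, which the results turn on: Dkk2 and Dixdc1 had groups that did not overlap, and Axin2 is the transcriptional readout of the pathway (RefSeq, build GRCm38.p6, 250 bases 5′ to 3′ on the gene's strand, the last base next to the start). Capitals mark a TATAAA, the core of a TATA box, searched on the gene's strand.
Dkk2, plus strand, chr3:132085042-132085291: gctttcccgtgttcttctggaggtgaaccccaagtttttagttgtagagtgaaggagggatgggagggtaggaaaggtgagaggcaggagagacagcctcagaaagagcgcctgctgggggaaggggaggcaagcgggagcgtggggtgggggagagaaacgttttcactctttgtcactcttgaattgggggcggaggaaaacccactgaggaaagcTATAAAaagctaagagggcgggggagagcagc
Axin2, plus strand, chr11:108920099-108920348: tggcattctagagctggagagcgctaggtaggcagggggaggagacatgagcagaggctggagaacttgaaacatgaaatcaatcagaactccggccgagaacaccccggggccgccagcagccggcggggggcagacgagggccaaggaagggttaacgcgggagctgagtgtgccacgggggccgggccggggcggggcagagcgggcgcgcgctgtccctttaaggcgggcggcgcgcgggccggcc
Dixdc1, minus strand, chr9:50737736-50737985: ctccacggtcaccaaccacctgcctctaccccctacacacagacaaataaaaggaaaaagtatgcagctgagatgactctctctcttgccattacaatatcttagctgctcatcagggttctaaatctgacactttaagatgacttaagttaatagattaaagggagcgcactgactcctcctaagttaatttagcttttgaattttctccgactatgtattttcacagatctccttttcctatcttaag

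The Dkk2 window held 1 TATAAA, starting 32 bases before the start, a word found in 7.59% of 32851 such windows. Binding motifs of TCF/LEF factors were searched on both strands as CTTTGNN, with A or T at each N. Of the 7 windows available for 6 of the genes 0 held one, against 14.8% of all windows. That says only that these letters are not in these windows. G and C made up 69.2% of the Axin2 window, with 24 CpG dinucleotides, 55.6% of the Dkk2 window, with 7, and 40% of the printed Dixdc1 window, with 3. RefSeq lists a second Dixdc1 start, whose window overlaps annotated exons and is not printed. That window was instead 70% G and C, with 28 CpG dinucleotides. GENCODE M21 lists 12 Dixdc1 transcripts, and the counts are per gene, so they do not say which start was used.

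Among the proteins that bind Wnt directly, Sfrp1 was plentiful and the others were low. Sfrp1 (chromosome 8, 23411502 to 23449632, plus strand) measured 428.8, 580.6 and 870.4 CPM in Thbs2KO replicates 1, 2 and 3, against 474.4, 610.7 and 557.2 CPM in WT replicates 1, 2 and 3. The groups overlapped, with the lowest and the highest library both Thbs2KO. Sfrp1 averaged 626.6 ± 224.4 CPM in Thbs2KO and 547.4 ± 68.7 CPM in WT (SD, n = 3 each; log2 fold change 0.19, SE 0.254, 95% interval -0.41 to 0.80, edgeR, Benjamini-Hochberg adjusted p = 0.832). Without Thbs2KO replicate 3 the estimate was on the other side of 0, at -0.12.

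Frzb, a further secreted Frizzled-related protein, lies on chromosome 2 (80411970 to 80447625, minus strand). Its level was 13.76, 12.23 and 10.85 CPM in the Thbs2KO libraries, against 5.855, 16.56 and 4.149 CPM in the WT libraries. The Thbs2KO libraries lay close together, inside the wide range of the WT libraries. The log2 fold change was 0.47 (SE 0.492, 95% interval -0.70 to 1.65, edgeR, Benjamini-Hochberg adjusted p = 0.771), and 1.31 without WT replicate 2 (edgeR, Benjamini-Hochberg adjusted p = 0.0906).

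Sfrp2 (chromosome 3, 83766321 to 83774316, plus strand) had 80, 82 and 20 reads in the Thbs2KO libraries, against 12, 54 and 183 reads in the WT libraries. In CPM these were 3.783, 4.013 and 0.978 in Thbs2KO and 0.517, 2.366 and 7.67 in WT. Both groups spanned more than a 4-fold range, and no direction can be given: the log2 fold change was -0.27 with a 95% interval of -2.45 to 1.91, and it ran from -0.78 to 1.02 with 1 library left out. Over those fits the adjusted p of edgeR lay between 0.599 and 0.97.

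Sfrp4 (chromosome 13, 19623104 to 19632994, plus strand) had 28, 36 and 39 reads in the Thbs2KO libraries, against 8, 22 and 24 reads in the WT libraries. Scaled to the libraries, Thbs2KO measured 1.324, 1.762 and 1.907 CPM and WT 0.344, 0.964 and 1.006 CPM. Every Thbs2KO library lay above every WT library, by little between Thbs2KO replicate 1 and WT replicate 3. Sfrp4 averaged 1.66 ± 0.303 CPM in Thbs2KO and 0.771 ± 0.37 CPM in WT (SD, n = 3 each; edgeR log2 fold change 1.10 with SE 0.423, Benjamini-Hochberg adjusted p = 0.331). Wif1 (chromosome 10, 121033960 to 121100650, plus strand), which carries its own Wnt-binding domain, had 0, 1 and 4 reads in the Thbs2KO libraries and 2, 1 and 0 reads in the WT libraries. It was not tested, and no fold is given.

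The Dickkopf genes differed from each other: Dkk2 was higher in every Thbs2KO library than in any WT library, and Dkk3 overlapped. Dkk2 (chromosome 3, 132085292 to 132180304, plus strand), which binds LRP5 and LRP6, measured 289.8, 229.9 and 818.4 CPM in Thbs2KO replicates 1, 2 and 3, against 172.8, 134.5 and 93.71 CPM in WT replicates 1, 2 and 3. Thbs2KO replicate 3 was 3.15 times the mean of Thbs2KO replicates 1 and 2. Dkk2 averaged 446.1 ± 323.9 CPM in Thbs2KO and 133.7 ± 39.6 CPM in WT (SD, n = 3 each; log2 fold change 1.74, SE 0.511, 95% interval 0.51 to 2.96, unadjusted p = 0.0125, edgeR, Benjamini-Hochberg adjusted p = 0.206; DESeq2 adjusted p = 0.104). Without Thbs2KO replicate 3 the log2 fold change was 0.96, and over the fits with 1 library left out the edgeR adjusted p ran from 0.171 to 0.536. Groups that do not overlap were found for 3 of the 8 tested genes, Dkk2, Sfrp4 and Dixdc1, all higher in Thbs2KO, and for 19.7% of all tested genes; those higher in Thbs2KO were 9.37% of all tested genes.

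Of the 12 fibroblast markers, Pdgfra, Dcn, Lum, Dpt, Fap, Pi16, Pdgfrb, Col1a2 and Col3a1 were also highest in Thbs2KO replicate 3. The other markers of the list, Col1a1, Thy1 and Pdpn, were highest in a WT library. Pdgfra, the gene of platelet-derived growth factor receptor alpha, measured 1013, 947 and 1527 CPM in the Thbs2KO libraries, against 750.5, 555.9 and 388 CPM in the WT libraries (edgeR, Benjamini-Hochberg adjusted p = 0.172; DESeq2 adjusted p = 0.00507). Its groups did not overlap, and its libraries stood in the same order as those of Dkk2. Dcn, the proteoglycan decorin, measured 352.4, 274.6 and 1004 CPM in the Thbs2KO libraries, against 323.2, 214.2 and 199.1 CPM in the WT libraries. Lum, the proteoglycan lumican, measured 8.795, 9.102 and 51.34 CPM in the Thbs2KO libraries, against 5.08, 8.018 and 8.927 CPM in the WT libraries. Col1a1, a chain of collagen I, instead lay lower in every Thbs2KO library than in any WT library, at 11630, 11340 and 12060 CPM in the Thbs2KO libraries, against 12140, 13830 and 14760 CPM in the WT libraries. Of the 12 fibroblast markers, all tested, 0 passed by edgeR and 1, Pdgfra, was higher at an unadjusted p under 0.05. It was also the 1 marker of that list called by DESeq2. The part of these genes in the Dkk2 level was not tested. In bulk RNA, a larger share of cells that express a gene and more RNA per cell cannot be told apart.

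Dkk3 (chromosome 7, 112116017 to 112159057, minus strand), a divergent relative that is not a typical LRP ligand, measured 126.2, 130.8 and 205.1 CPM in the Thbs2KO libraries, against 137.4, 125.3 and 146.6 CPM in the WT libraries. Only Thbs2KO replicate 3 stood out, above all WT libraries. The means were 154.1 ± 44.3 CPM in Thbs2KO and 136.5 ± 10.7 CPM in WT (SD, n = 3 each; log2 fold change 0.17, SE 0.195, 95% interval -0.29 to 0.64, edgeR, Benjamini-Hochberg adjusted p = 0.795), and the estimate was -0.086 without Thbs2KO replicate 3. Dkk1, the best known Dickkopf antagonist, had 0 reads in the Thbs2KO libraries and 3 reads in the WT libraries, all in replicate 1.

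**Figure D1:**
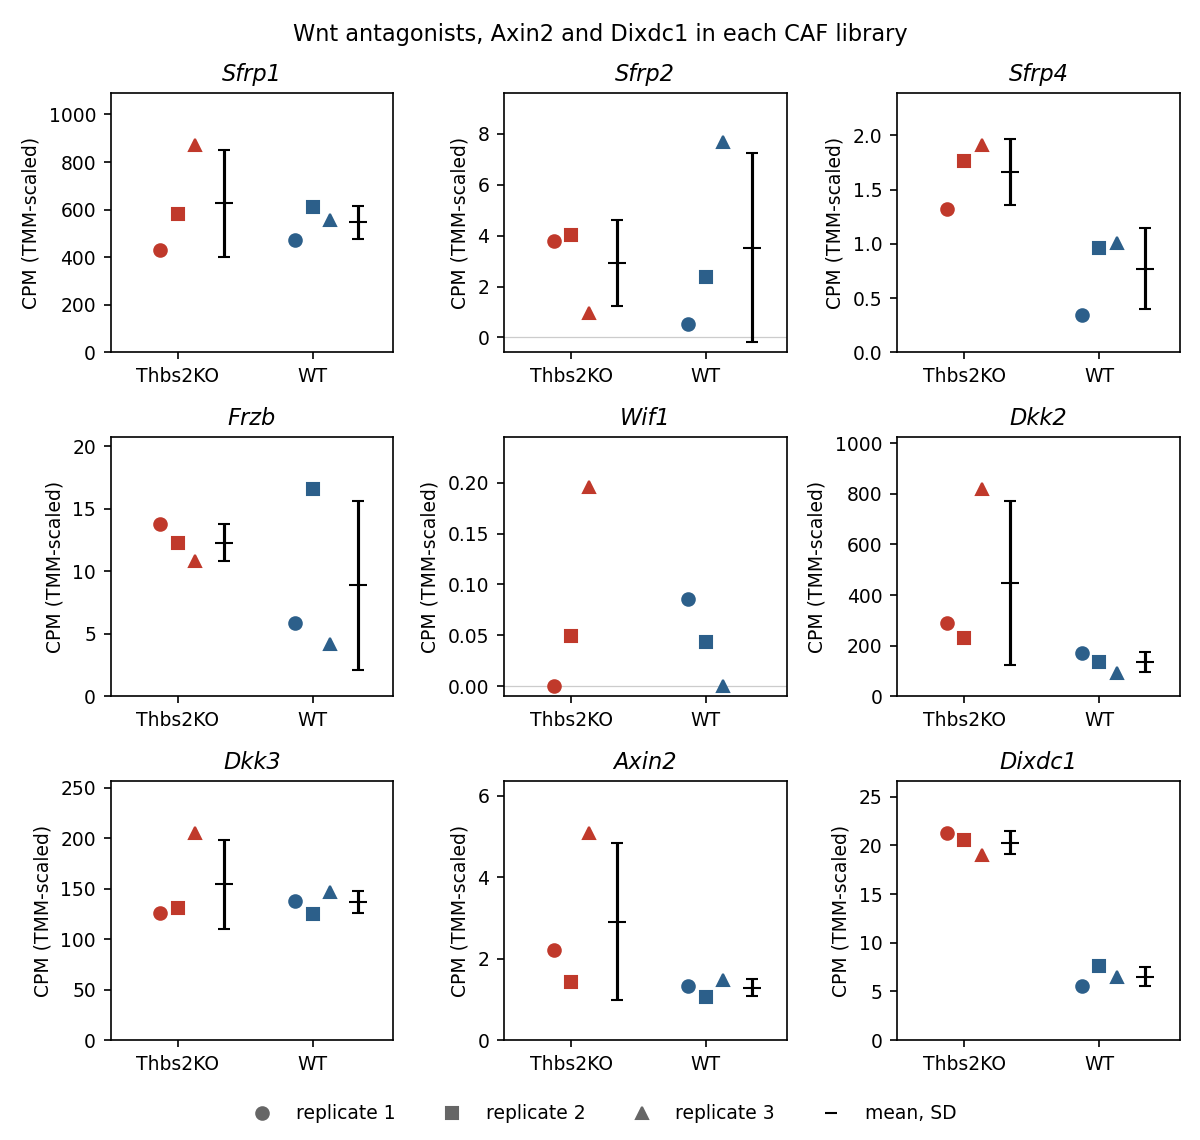
CPM (TMM-scaled, linear axes) of the 9 genes in each library, with Thbs2KO in red on the left and WT in blue on the right of each panel; symbols mark replicates, and bars give the mean and SD over 3 libraries (none for Wif1, with at most 4 reads). The Dixdc1 groups are well apart, at 18.97 to 21.28 CPM in Thbs2KO and 5.553 to 7.58 CPM in WT, while Dkk2 and Axin2 reach their highest values in Thbs2KO replicate 3.

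Axin2 and Dixdc1 act inside the cell. Axin2 (chromosome 11, 108920349 to 108950783, plus strand) is a scaffold of the complex that degrades beta-catenin. It had 47, 29 and 104 reads in the Thbs2KO libraries, against 31, 24 and 35 reads in the WT libraries. In CPM these were 2.222, 1.419 and 5.085 in Thbs2KO and 1.335, 1.052 and 1.467 in WT. Thbs2KO replicate 2 lay below WT replicate 3, so the groups overlapped, and Thbs2KO replicate 3 was 2.79 times the mean of the other Thbs2KO libraries. The means were 2.91 ± 1.93 CPM in Thbs2KO and 1.28 ± 0.212 CPM in WT (SD, n = 3 each; log2 fold change 1.17, SE 0.487, 95% interval 0.01 to 2.34, unadjusted p = 0.0489, edgeR, Benjamini-Hochberg adjusted p = 0.373). The log2 fold change was 0.50 without Thbs2KO replicate 3.

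Dixdc1 (chromosome 9, 50662752 to 50739517, minus strand) encodes a protein with the DIX domain found in Dishevelled and Axin, and acts as a positive regulator of Wnt signalling. It had 450, 420 and 388 reads in the Thbs2KO libraries, against 129, 173 and 154 reads in the WT libraries. Its level was 21.28, 20.55 and 18.97 CPM in Thbs2KO and 5.553, 7.58 and 6.454 CPM in WT. The replicates of each group were close together and the groups far apart, with Thbs2KO replicate 3 lowest of its group. Dixdc1 averaged 20.3 ± 1.18 CPM in Thbs2KO and 6.53 ± 1.01 CPM in WT (SD, n = 3 each; log2 fold change 1.63, SE 0.141, 95% interval 1.30 to 1.97, edgeR, Benjamini-Hochberg adjusted p = 0.00527; DESeq2 adjusted p = 1.13e-18). Without each library in turn its log2 fold change stayed between 1.53 and 1.77 and its edgeR adjusted p between 0.00889 and 0.0474. With the replicate number as a block the log2 fold change was 1.64, but the edgeR adjusted p was 0.0719 and Dixdc1 did not pass.

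Markers of other cell types were read beside these values. The 13 epithelial markers together measured 12.67 to 18.48 CPM in Thbs2KO and 25.94 to 35.25 CPM in WT, and these sums did not overlap. All 7 that could be tested had negative log2 fold changes (median -1.30), as did 6912 of all 13590 tested genes. Of the 7, 2 had an unadjusted p under 0.05 and lower values in Thbs2KO. They were the keratin genes Krt19 and Krt20, both also called by DESeq2. Krt19 measured 5.769, 6.215 and 3.569 CPM in the Thbs2KO libraries, against 14.55, 9.858 and 13.83 CPM in the WT libraries, and Krt20 measured 0.378, 0.44 and 0.147 CPM in Thbs2KO and 1.378, 1.533 and 3.227 CPM in WT. Epcam, a defining epithelial marker, had groups that overlapped, at 0.473, 0.294 and 1.17 CPM in the Thbs2KO libraries, against 0.646, 1.36 and 1.8 CPM in the WT libraries. The 12 pericyte and smooth muscle markers measured 432.9 to 573.4 CPM in Thbs2KO and 415.3 to 1429 CPM in WT, and their sums overlapped. Of the 10 tested, 5 had an unadjusted p under 0.05 with lower values in Thbs2KO. Cnn1, Lmod1 and Mcam were called lower by DESeq2. For all tested genes the share lower at that unadjusted p was 7.56%, and DESeq2 called 5.15% in either direction. The sum of the 7 mesothelial markers, 4.6 to 7.49 CPM in Thbs2KO and 11.4 to 15.02 CPM in WT, was mostly Krt19, which both lists hold. Wt1, the other tested mesothelial marker, had a log2 fold change of 0.92 and groups that overlapped. The sum of the 10 endothelial markers, 32.5 to 50.6 CPM in Thbs2KO and 11.9 to 32.3 CPM in WT, was mostly Kdr except in WT replicate 1. The Kdr groups overlapped at 44.97, 28.04 and 21.46 CPM in Thbs2KO and 2.497, 26.33 and 10.56 CPM in WT. The defining endothelial marker Pecam1 averaged 0.191 CPM in Thbs2KO and 0.199 CPM in WT. By edgeR 0 markers of these 4 lists passed, and their part in the Dixdc1 difference was not tested. Of the 9 genes, Axin2 and Sfrp2 share exon bases with an annotated antisense gene, 209 and 347 bases, and the library kit does not mark strand. Those antisense genes had 0 reads and 1 read in Thbs2KO and 0 reads and 1 read in WT.

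**Figure D2:**
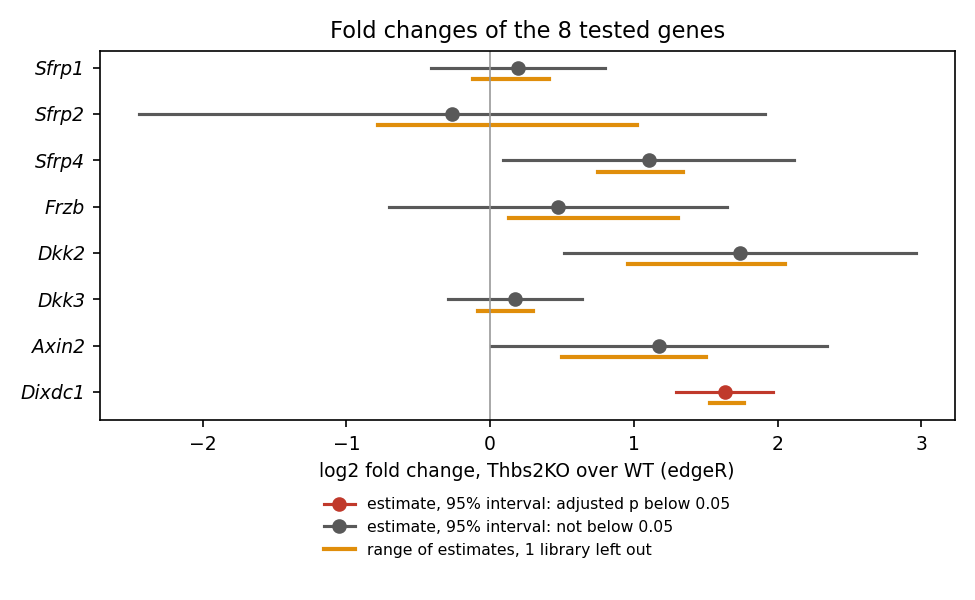
The log2 fold change of Thbs2KO over WT (edgeR) for the 8 tested genes, with 95% intervals (thin lines; red where the adjusted p is below 0.05) and, in orange, the range of estimates with 1 library left out. The Dixdc1 interval runs from 1.30 to 1.97, whereas the interval of Sfrp2 runs from -2.45 to 1.91.

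Levels of different genes were set side by side as CPM per kilobase of merged exons. The order in Thbs2KO was Sfrp1 (143.3 ± 51.3), Dkk2 (120.4 ± 87.4), Dkk3 (45.9 ± 13.2), Frzb (3.79 ± 0.449), Dixdc1 (2.03 ± 0.118), Sfrp2 (1.36 ± 0.785), Axin2 (0.528 ± 0.35), Sfrp4 (0.398 ± 0.0726) and Wif1 (0.0336). The WT libraries had Sfrp1 (125.2 ± 15.7), Dkk3 (40.6 ± 3.18), Dkk2 (36.1 ± 10.7), Frzb (2.74 ± 2.08), Sfrp2 (1.63 ± 1.73), Dixdc1 (0.655 ± 0.102), Axin2 (0.233 ± 0.0385), Sfrp4 (0.185 ± 0.0886) and Wif1 (0.0178), in CPM per kilobase (SD, n = 3). Neighbours whose libraries overlapped in Thbs2KO were Sfrp1 and Dkk2, Sfrp2 and Axin2, and Axin2 and Sfrp4. In WT these were Dkk3 and Dkk2, Frzb and Sfrp2, Sfrp2 and Dixdc1, and Axin2 and Sfrp4. Thus Sfrp1, Dkk2 and Dkk3 stood far above the other genes in both groups.

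Because Sfrp1, Dkk2 and Dkk3 made up nearly all of the antagonist transcripts, the mixture could be described within each library, where scaling between libraries has no effect. Dkk2 supplied 35.5%, 25.9% and 45.5% of the summed per-kilobase level of the 7 antagonists in Thbs2KO replicates 1, 2 and 3, against 23.5%, 16.5% and 12.6% in WT replicates 1, 2 and 3. Sfrp1 supplied 44.5%, 55.4% and 41% in the Thbs2KO libraries, against 54.7%, 63.6% and 63.3% in the WT libraries. The Dkk2 shares did not overlap, and the Sfrp1 shares overlapped between Thbs2KO replicate 2 and WT replicate 1. The ratio of Dkk2 to Dkk3 per kilobase was 2.08, 1.59 and 3.62 in the Thbs2KO libraries, against 1.14, 0.973 and 0.579 in the WT libraries. The summed level itself was 220.2, 239.9 and 485.4 CPM per kilobase in Thbs2KO and 198.2, 219.8 and 201.5 in WT, so that only Thbs2KO replicate 3 stood clearly apart. No test was made of these shares, which were chosen after the values were seen.

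**Figure D3:**
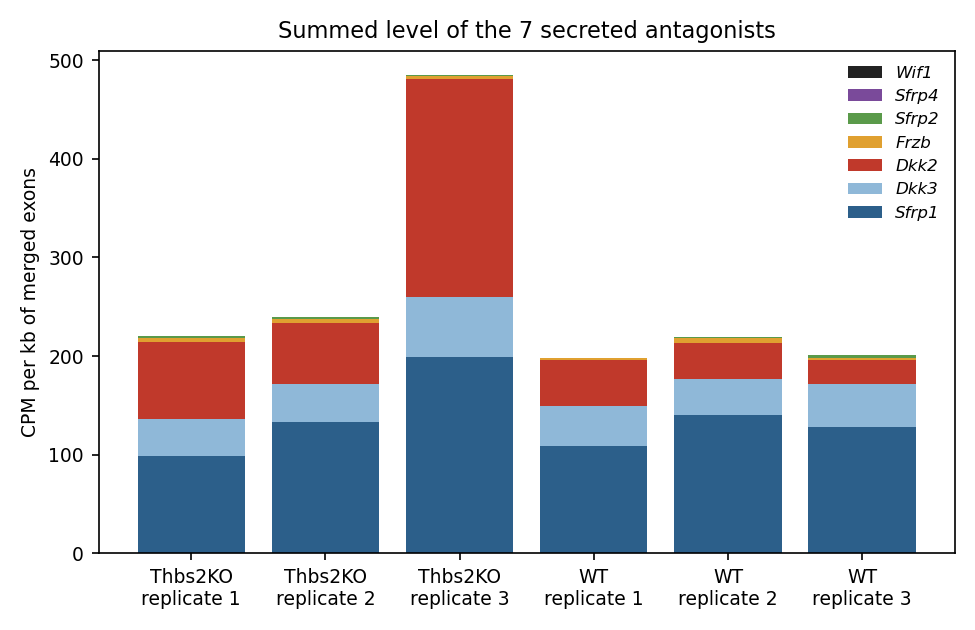
Stacked CPM per kilobase of merged exons of the 7 secreted antagonists in each library, Thbs2KO on the left and WT on the right; the axis starts at 0. Dkk2 (red) takes 25.9% to 45.5% of the bar in Thbs2KO libraries and 12.6% to 23.5% in WT libraries, and the bar of Thbs2KO replicate 3 is the tallest at 485.4.

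Profiles most like those of Dkk2, Dixdc1 and Axin2 were sought among 10106 genes of at least 5 CPM, by the root mean square difference of centred log2 CPM over the 6 libraries. For Dkk2 these were Aspn, the small leucine-rich proteoglycan asporin (difference 0.237 on the log2 scale), the cationic amino acid transporter gene Slc7a2 (0.289) and the adhesion molecule gene Alcam (0.308). Aspn measured 83.36, 64.54 and 221.7 CPM in the Thbs2KO libraries, against 38.92, 51.13 and 22.72 CPM in the WT libraries, and like Dkk2 did not pass the test (edgeR, Benjamini-Hochberg adjusted p = 0.222). Closest to Dixdc1 were the homeobox gene Shox2 (0.127), the latent TGF-beta binding protein gene Ltbp1 (0.173) and Cxadr, a junctional adhesion receptor (0.197). Shox2 measured 39.2, 37.63 and 35.69 CPM in the Thbs2KO libraries, against 9.514, 16.25 and 14.17 CPM in the WT libraries (log2 fold change 1.49, edgeR, Benjamini-Hochberg adjusted p = 0.0257). The nearest to Axin2 were Fgl2 (0.186), Ctla2a (0.204) and the collagen VI chain gene Col6a2 (0.261), each highest in Thbs2KO replicate 3. These likenesses rest on the same 6 libraries and carry no test.

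The rest of the pathway was read from 8 lists of 102 further genes, of which 73 could be tested. By edgeR 0 of the 73 changed, with 4 higher and 10 lower in Thbs2KO at an unadjusted p under 0.05, where 5.72% and 7.56% of all tested genes were. DESeq2 called 2 higher and 5 lower: Bcl9 and Rspo2, and Fzd4, Igfbp4, Mcam, Ryk and Wnt10b (it called 5.15% of all genes). The median log2 fold change was -0.06 over the 73 genes, against -0.00377 over all tested genes. Positive log2 fold changes were found for 31 of the 73 further genes and for 6678 of all 13590 tested genes. They were found for 7 of the 8 tested antagonist, feedback and regulator genes, of which Sfrp1 and Dkk3 were negative without Thbs2KO replicate 3, and the counts were not compared by a test.

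Extracellular partners came first. Of 14 other antagonists 4 could be tested. Igfbp4, an IGF-binding protein that also binds Frizzled and LRP6, measured 116.6, 162 and 243.4 CPM in the Thbs2KO libraries, against 433.5, 319.1 and 350.7 CPM in the WT libraries (log2 fold change -1.08, edgeR, Benjamini-Hochberg adjusted p = 0.141; DESeq2 adjusted p = 0.00233). Every Thbs2KO library was below every WT library, and Thbs2KO replicate 3 lay nearest to WT. Draxin, a secreted guidance protein, measured 1.56, 1.468 and 2.689 CPM in Thbs2KO and 1.033, 1.227 and 0.964 CPM in WT, with adjusted p = 0.337 by edgeR.

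Of the 5 receptor and co-receptor genes of the Dickkopf proteins, 4 could be tested and Kremen2 had no read in any library. Among the tested genes 0 had an unadjusted p under 0.05, DESeq2 called 0, and the median log2 fold change was 0.12. Kremen1, a co-receptor that helps remove LRP6 from the surface, measured 65.58, 73.25 and 84.83 CPM in the Thbs2KO libraries, against 68.1, 69.01 and 70.2 CPM in the WT libraries. Lrp4, a relative of the co-receptors, had a log2 fold change of 0.14. Among 13 tested Frizzled and other Wnt receptors the median was -0.15, with 4 lower at an unadjusted p under 0.05. Fzd4, a Frizzled receptor that also binds norrin, measured 20.05, 19.33 and 16.62 CPM in Thbs2KO and 25.83, 33.43 and 32.86 CPM in WT (edgeR log2 fold change -0.72 with SE 0.134, Benjamini-Hochberg adjusted p = 0.0706). Mcam, an adhesion molecule that is also a pericyte marker, had a log2 fold change of -1.21 (edgeR, Benjamini-Hochberg adjusted p = 0.0691). Ryk, a further Wnt receptor gene, measured 211.5, 203.6 and 222.6 CPM in Thbs2KO and 260.1, 287 and 296.7 CPM in WT (edgeR, Benjamini-Hochberg adjusted p = 0.0802). DESeq2 called 3 of the 13 lower, Fzd4, Mcam and Ryk, at adjusted p = 0.000923, 0.000215 and 0.00122. It called 5.15% of all tested genes in either direction. Groups did not overlap for 4 of the 13 that were lower in Thbs2KO and 1 that was higher, against 19.7% of all tested genes. Fzd4, Mcam and Ryk were among the 4.

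Ligands and R-spondins were mostly low. Of 19 Wnt genes 9 could be tested, with a median log2 fold change of -0.39, 3 of them lower at an unadjusted p under 0.05 and 1 lower by DESeq2. The 2 with positive log2 fold changes, Wnt5a (0.10) and Wnt9a (0.72), were the most abundant, and both had groups that overlapped. The summed level of the 19 genes also overlapped, at 98.4 to 130 CPM in Thbs2KO and 85.88 to 128.9 CPM in WT. Wnt10b had 4, 6 and 0 reads in the Thbs2KO libraries, against 17, 24 and 29 reads in the WT libraries, and Wnt11 had 16, 21 and 11 reads in Thbs2KO and 35, 37 and 66 reads in WT (edgeR, Benjamini-Hochberg adjusted p = 0.172 and 0.183). Of 7 R-spondins and receptors 5 could be tested. Rspo2, which amplifies Wnt signals, measured 2.506, 2.691 and 13.05 CPM in the Thbs2KO libraries, against 1.593, 1.052 and 1.09 CPM in the WT libraries (edgeR, Benjamini-Hochberg adjusted p = 0.233; DESeq2 adjusted p = 0.0153). Like Dkk2 and Axin2 it was highest in Thbs2KO replicate 3. The R-spondin receptor gene Lgr4 had a log2 fold change of -0.29.

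Components inside the cell had list medians near 0. All 14 genes of the Dishevelled, scaffold and destruction complex list were tested, with a median log2 fold change of -0.06 and 1 gene at an unadjusted p under 0.05. Ctnnb1, which encodes beta-catenin, measured 670.1, 682.9 and 717.7 CPM in the Thbs2KO libraries, against 643, 591.4 and 599.7 CPM in the WT libraries (log2 fold change 0.18, edgeR, Benjamini-Hochberg adjusted p = 0.393). Ccdc88c, a Dishevelled-binding protein gene, had 8, 9 and 16 reads in Thbs2KO and 20, 40 and 48 reads in WT (adjusted p = 0.207 by edgeR). In the 12 TCF/LEF and co-factor genes the median was -0.02 and 2 were higher at an unadjusted p under 0.05. Bcl9, a co-activator that binds beta-catenin, measured 58.91, 55.1 and 54.71 CPM in Thbs2KO and 36.51, 46.31 and 40.53 CPM in WT (log2 fold change 0.45, edgeR, Benjamini-Hochberg adjusted p = 0.114; DESeq2 adjusted p = 0.0122). The co-repressor gene Tle3 had a log2 fold change of 0.17.

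Other feedback and target genes were read beside Axin2. Of 23 listed, 17 could be tested: 6 had positive and 11 negative log2 fold changes, the median was -0.22, and 0 passed by edgeR or DESeq2, 2 of them lower at an unadjusted p under 0.05. Those 2 were Wnt11, also counted among the ligands, and Fgf18, a growth factor gene, which measured 1.182, 1.272 and 1.027 CPM in the Thbs2KO libraries, against 1.722, 1.49 and 3.311 CPM in the WT libraries. Sp5 had no read in any library, and Rnf43 had at most 4 reads in a Thbs2KO library and at most 8 in a WT library. Nkd2, a Dishevelled-binding feedback gene singled out for its values, gave 5.485, 3.866 and 14.42 CPM in the Thbs2KO libraries, against 4.262, 7.886 and 5.281 CPM in the WT libraries, with the highest value in Thbs2KO replicate 3. The list as a whole did not share this. Of its tested genes Kremen1, Tcf7, Nkd1 and Twist1 were also highest in that library, but Myc, Cd44, Jun, Bambi, Wnt11 and Fgf18 were lowest there. The summed level of the list was lowest there too, at 992.9 CPM.

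**Figure D4:**
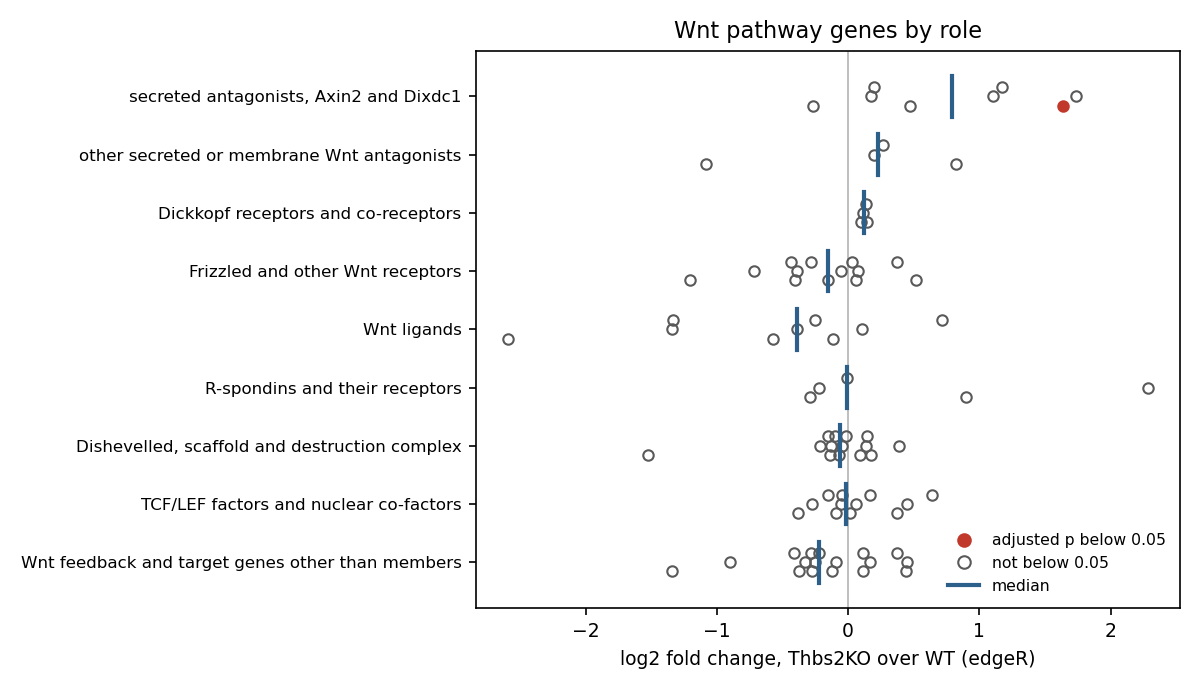
The log2 fold change of Thbs2KO over WT (edgeR) for every tested gene of the 9-gene set (top row) and of 8 further Wnt pathway lists, with list medians as blue bars; filled red points have an adjusted p below 0.05. Dixdc1 is the 1 filled point, and the medians of the 8 further lists run from -0.39 for Wnt ligands to 0.23 for the other antagonists.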

How the data were processed

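The authors deposited expected counts, unscaled estimates of the reads per gene. The tools named are Trimmomatic 0.39, STAR 2.7.3a and RSEM, with the build mm10, per the submitters' processing notes. RSEM splits reads that match several genes. From 3.8% to 3.88% of values per library were not whole, and counts were rounded before testing.

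Genes were kept with filterByExpr, scaled with TMM and tested with edgeR 4.0.16 (quasi-likelihood, robust, genotype only) in R 4.3.3, adjusted over all tested genes. Standard errors were derived from the F statistic. Positions and exon lengths come from GENCODE M21 (GRCm38, as mm10). The steps were checked on simulated counts. Alternatives were upper-quartile or RLE scaling, limma-voom (limma 3.58.1), DESeq2 1.42.0, a stricter filter or none, a fit that was not robust, the replicate number as a block, each library left out, WT replicate 1 and Thbs2KO replicate 3 both left out, and Thbs2KO replicates 1 and 2 summed.

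The genes, lists, tests and alternatives were chosen with earlier results of these data known. The naming rule took Thbs2, all 9 genes, up to 3 changed genes of each pathway list or else the 2 with the smallest p, and the 3 genes most alike to Dkk2, Dixdc1 and Axin2. Pdgfra, Dcn, Lum, the collagen genes, Epcam, Krt19, Krt20, Wt1, Kdr, Pecam1, Ptprc, Dkk1, Kremen2, Sp5, Rnf43, Nkd2 and the genes called by DESeq2 alone were named after their values were seen. So were Lyz2, Cd14, Csf1r, Tcf7, Nkd1, Twist1, Myc, Cd44, Jun, Bambi, Wnt5a and Wnt9a. The same holds for Dpt, Fap, Pi16, Pdgfrb, Thy1 and Pdpn. Figures were drawn with matplotlib 3.10.9.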

Additional observations from a re-analysis of the deposited data

How the results depend on the processing

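Of the 9 genes, Dixdc1 alone passed the test in 15 of 16 alternatives, the replicate block being the exception: there 0 passed and Dixdc1 had a log2 fold change of 1.64 and an adjusted p of 0.0719. The labels do not say whether replicate numbers pair the libraries, though the deposited columns carry the same running numbers in both genotypes. Correlations of same-numbered deviations were -0.292, 0.171 and -0.331. With 3 libraries in a group they cannot decide this. The block left 30 changed genes in all, and Thbs2 itself at -2.86 with an adjusted p of 0.0784. Of all tested genes, 148 changed, against 699 by DESeq2, 245 without a filter, 1519 without both WT replicate 1 and Thbs2KO replicate 3, 40 with Thbs2KO replicates 1 and 2 summed, and 38 to 397 with 1 library left out (38, 45, 110 without Thbs2KO replicates 1, 2, 3 and 397, 79, 49 without WT replicates 1, 2, 3). Of the 73 pathway genes 0 changed, against 7 by DESeq2, 2 without a filter, 0 to 5 with 1 library left out (5 without WT replicate 1), and 15 without both WT replicate 1 and Thbs2KO replicate 3. Signs turned for genes that did not pass in any fit. Sfrp1 stood at -0.12 without Thbs2KO replicate 3 (-0.12 to 0.41 with 1 library left out) and -0.21 without both libraries, and Dkk3 at -0.086 (-0.086 to 0.30) and -0.081. Sfrp2 stood at 0.21 by limma-voom, 0.26 with the block, 0.15 without Thbs2KO replicate 3 and 1.02 without WT replicate 3 (-0.78 to 1.02 with 1 library left out). The cause was not tested. Per length of the longest transcript, Dixdc1 stood at 3.14 in Thbs2KO and 1.01 in WT, and Axin2 at 0.302 in WT. Sfrp2, Sfrp4 and Axin2 rest on 8 to 183 reads a library and could not be tested under the stricter filter, and Wif1 only without a filter.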
